A study of Homo sapiens with 4 samples.

Results

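The EGR and AP-1 immediate early factors were followed in NB4 cells, a human M3/APL line that carries PML-RARα. These are 10 genes of the 60662 in the deposited table: EGR1, EGR2, EGR3, FOS, FOSB, FOSL2, JUN, JUNB, JUND and ATF3. They were chosen by name, with earlier results of this same comparison known, so that their levels and fold changes are selected on these data and are given as a description. No p-value is given for a member, and a member's call serves only to count it beside the share of all genes called. RNA-seq had been done on 2 libraries of cells transduced with an empty vector and 2 libraries of cells transduced with a vector expressing JMJD3, an H3K27 demethylase encoded by KDM6B. The comparison asked which transcripts differed once JMJD3 was overexpressed. Most deposited counts were whole multiples of 1 value per library, and were read as reads multiplied by a library factor. They summed to 39078443 and 40768225 (vector libraries 1 and 2) and to 35176388 and 34704909 (JMJD3 libraries 1 and 2). Divided by the value that 1 read appeared to take in each library and rounded, they summed to 34190328 and 38947091 reads in vector libraries 1 and 2 and to 35431657 and 41876220 reads in JMJD3 libraries 1 and 2, so that JMJD3 library 2 was the deepest. Reads of single genes below are of this kind, while CPM and fold changes were computed from the deposited counts. Vector library 1 carries the lane label 20 and the other 3 libraries the label 17. Within label 17 there is 1 vector library, so lane and group cannot be fully told apart. Whether a group's 2 libraries stem from independent transductions is not given, so a p-value here measures only the spread between these libraries, which may be technical. In bulk RNA, fewer cells of a type and less RNA per cell cannot be told apart.

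Immediate early genes are transcribed within minutes of a stimulus without new protein synthesis, largely through serum response factor with its ETS partners and through CREB and ATF proteins bound at their promoters. EGR proteins are zinc finger factors that bind GC-rich sites, and FOS proteins pair with JUN proteins through leucine zippers to form AP-1. In myeloid cells EGR1 and AP-1 factors are known for their part in monocytic differentiation.

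KDM6B (ENSG00000132510) was read first, as a check of the labels. It was at 15.8 and 13.7 CPM (deposited counts scaled to library size with TMM) in vector libraries 1 and 2, and at 37.9 and 44.1 CPM in JMJD3 libraries 1 and 2. Both JMJD3 libraries lay above both vector libraries, as their labels say. The log2 fold change, JMJD3 over vector, was 1.48 (standard error 0.13), with an adjusted p of 0.00114 by the quasi-likelihood test of edgeR, which gave every other adjusted p below. Transcripts of the vector and of the endogenous gene are pooled in a count per gene.

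The cells carried the granule genes of promyelocytes. MPO, which encodes myeloperoxidase, was the most abundant of 8 promyelocyte markers, at 4889 and 5055 FPKM (fragments scaled to gene length and library depth) in the vector libraries and 3278 and 3324 FPKM in the JMJD3 libraries. ELANE, the neutrophil elastase gene and a defining marker, was near 0, at 11 and 7 reads in vector cells and 1 and 2 reads in JMJD3 cells. The 8 markers summed to 8454 and 9457 FPKM in vector libraries 1 and 2, and to 4745 and 4694 FPKM in JMJD3 libraries 1 and 2. Of the 7 tested by edgeR, 4 fell and 2 rose at an adjusted p under 0.05, where 19.1% of all tested genes fell and 21.6% rose. CTSG, encoding cathepsin G, fell by 3.91 on the log2 scale (edgeR adjusted p = 9.25e-05). PRTN3, encoding proteinase 3, fell by 1.81 (edgeR adjusted p = 0.000394), MPO by 0.57 (0.00168) and AZU1 by 0.56 (0.0119). CEBPE, a factor of granulocytic maturation, rose by a log2 fold change of 0.72 (edgeR adjusted p = 0.00515), and CD33 by 0.29 (0.038), a call lost in 8 of 14 alternatives, with 0.06 on either limma scale, so that 1 marker rose without JMJD3 library 1 and 1 without JMJD3 library 2. The call of AZU1 was lost with limma on FPKM and with no filter on low counts, and that of CEBPE with limma on log2(FPKM + 0.1), where 0 markers rose.

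Markers of other cells were also read. The 10 monocyte and macrophage markers summed to 36.7 and 42.6 FPKM in the vector libraries and to 46.9 and 49.2 FPKM in the JMJD3 libraries. FCGR1A was the most abundant of them, FCGR3A was at 0 counts in all 4 libraries, and CD14 had 8 to 13 reads. CSF1R, the M-CSF receptor gene, rose by a log2 fold change of 1.56 (edgeR adjusted p = 0.0014), and CD68 by 0.60 (0.00611), the latter not without JMJD3 library 1, which left 1 gene called. The 8 markers of mature neutrophils summed to 36.1 and 37.3 FPKM in vector cells and 43.6 and 45.8 FPKM in JMJD3 cells, with CSF3R the most abundant and FCGR3B and MMP8 at 0 counts. In that list ITGAM, which encodes CD11b, rose by a log2 fold change of 0.59 (edgeR adjusted p = 0.01), not so without JMJD3 library 2 or with limma on FPKM (0.36 on log2(FPKM + 1)). CAMP, from 2 and 4 reads to 15 and 13, rose by 2.09 (edgeR adjusted p = 0.0253), not so without JMJD3 library 1, with the DESeq2 Wald test or with no filter, and was at 0.53 with limma on log2(FPKM + 1). All 5 erythroid markers were at 0 counts in the 4 libraries. The 6 lymphoid markers summed to 163 and 200.2 FPKM in vector cells and 172 and 170.2 FPKM in JMJD3 cells. NKG7 was the most abundant of them, at 151 and 186 FPKM in vector cells and 152 and 150.5 FPKM in JMJD3 cells, above CD33, CEBPE, LYZ and ELANE of the promyelocyte list in each library, MS4A1 was at 0 counts, and CD79A rose by a log2 fold change of 0.83 (edgeR adjusted p = 0.00416). The 5 stromal and epithelial markers summed to 9.55 and 8.87 FPKM in vector cells and 12.2 and 16.6 FPKM in JMJD3 cells, with COL1A2 and KRT19 at 0 counts. PECAM1, a gene not confined to stromal or epithelial cells, was at 5.34 and 3.95 FPKM in vector cells, where it overlapped with EPCAM (4.12 and 4.84 FPKM). In JMJD3 cells PECAM1 was the most abundant of the 5, at 11.1 and 15.6 FPKM, and made up most of their sum. PECAM1 rose by a log2 fold change of 1.03 (edgeR adjusted p = 0.00135), and EPCAM fell by 2.05 (0.00115). Of the monocyte, neutrophil and lymphoid lists 6, 4 and 3 genes were tested. None of these fell, also at an unadjusted p under 0.05 and with DESeq2 or limma. For the lymphoid list this did not hold without vector library 1. The part of these shifts in the levels of the EGR and AP-1 genes was not tested.

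Of the 10 members 9 passed the filter on low counts, and EGR3 did not. At an adjusted p under 0.05 over all tested genes, 5 members were called higher and 1 lower in JMJD3 cells, where 21.6% of the 15246 tested genes were called higher and 19.1% lower. In 6 members both JMJD3 libraries lay above both vector libraries on the CPM scale and in 2 both lay below, where 39.6% and 34.8% of tested genes did so. Since the members were chosen with this comparison known, nothing is read from these counts. The count of members called lower was 2 without vector library 1 and 0 without JMJD3 library 1 or without JMJD3 library 2, and the count called higher was 4 or 5 with any 1 library left out. Of the members called, JUNB lost its call in 9 of 14 alternatives, the omission of vector library 1 or of either JMJD3 library among them, and JUND in 5, the omission of either JMJD3 library among them.

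**Figure D1:**
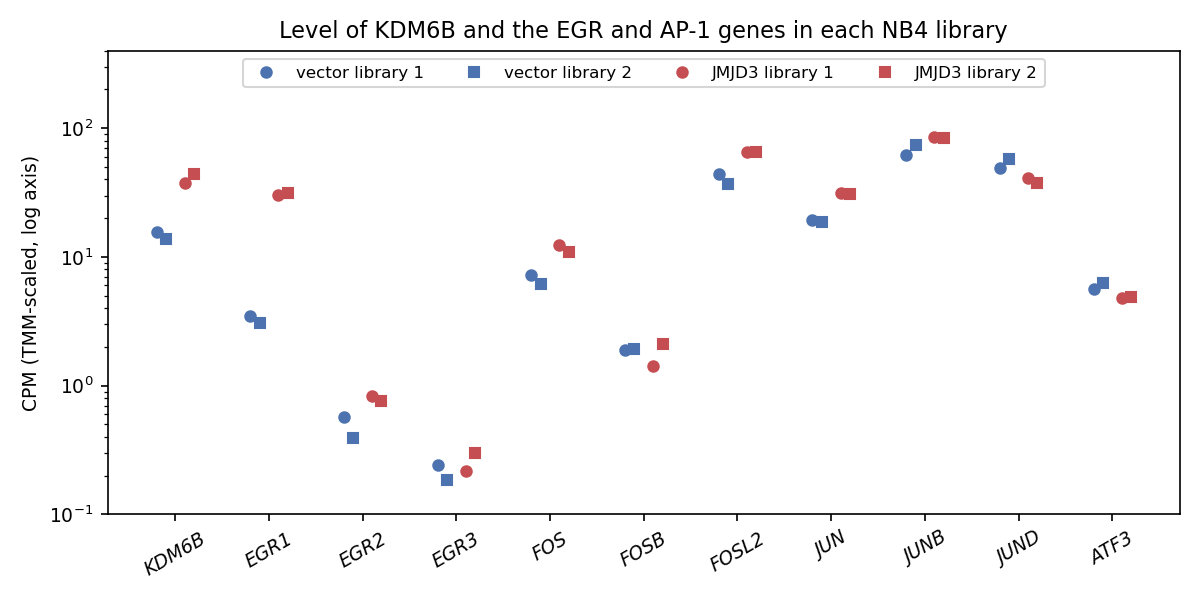
CPM (log axis) of KDM6B and the 10 EGR and AP-1 genes in each of the 4 libraries, vector in blue and JMJD3 in red, circles for library 1 and squares for library 2. EGR1 stands at 3.51 and 3.07 CPM in vector cells and at 30.5 and 31.5 CPM in JMJD3 cells, while the libraries of the groups overlap for FOSB and EGR3.

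EGR1 (ENSG00000120738, chromosome 5 of GRCh37 from 137801168 to 137804992) encodes a zinc finger factor induced by serum and by differentiation signals. It was at 3.51 and 3.07 CPM in vector libraries 1 and 2, from 114 and 112 reads, and at 30.5 and 31.5 CPM in JMJD3 libraries 1 and 2, from 1139 and 1406 reads. The JMJD3 libraries lay far above the vector libraries, with little spread within either group. The log2 fold change was 3.24 (standard error 0.12), a 9.43-fold difference, which placed EGR1 at rank 39 of the 15246 tested genes ordered by log2 fold change from the top. Per length, its mean level was at percentile 21.9 of tested genes in vector cells (1.15 ± 0.0872 FPKM, SD, n = 2) and at percentile 53.4 in JMJD3 cells (10.7 ± 0.245 FPKM, SD, n = 2).

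EGR2 (ENSG00000122877, chromosome 10 of GRCh37 from 64571756 to 64578927), a factor of macrophage and myelin gene programs, was far less abundant. It was at 0.567 and 0.393 CPM in vector libraries 1 and 2 and at 0.837 and 0.756 CPM in JMJD3 libraries 1 and 2. These values rest on 18 and 14 reads against 31 and 34. The exact 95% Poisson intervals, put on the CPM scale of each library, were 0.329 to 0.877 and 0.210 to 0.644 CPM in vector libraries 1 and 2, and they overlap those of JMJD3 libraries 1 and 2, at 0.565 to 1.18 and 0.527 to 1.06 CPM. Overlap between intervals of single libraries does not test the difference between the groups. The log2 fold change of 0.73 (standard error 0.32) rests on few reads. It was 0.14 with limma on log2(FPKM + 1), where the pseudocount shrinks changes of genes this low. EGR3 (ENSG00000179388), a relative with overlapping targets, had 8 and 7 reads in vector cells and 8 and 13 reads in JMJD3 cells. Its libraries overlapped between the groups on the CPM scale. The intervals ran from 0.0772 to 0.486 CPM in vector cells and from 0.0926 to 0.497 CPM in JMJD3 cells. Such intervals cover counting error only.

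Of the FOS proteins, which bind DNA in pairs with JUN proteins among others, FOS (ENSG00000170345, chromosome 14 of GRCh37 from 75745529 to 75748933) was at 7.20 and 6.21 CPM in vector libraries 1 and 2 and at 12.5 and 10.8 CPM in JMJD3 libraries 1 and 2. The groups did not overlap, and the log2 fold change was 0.80 (standard error 0.14). On the FPKM scale FOS was at 4.77 and 3.41 in the vector libraries and at 7.64 and 8.76 in the JMJD3 libraries. The count that 1 FPKM of FOS stood for, scaled to each library, varied 1.51-fold over the 4 libraries, so that the log2 ratio of group means was 1.00 on FPKM and 0.80 on CPM. That spread was larger than in 94.1% of 10575 genes with at least 100 deposited counts in every library, while for EGR1, JUN and JUNB it was 1.00-fold. FOSB (ENSG00000125740, chromosome 19 of GRCh37 from 45971253 to 45978437) was at 1.89 and 1.91 CPM in vector cells and 1.43 and 2.11 CPM in JMJD3 cells. Its groups overlapped, and the log2 fold change of -0.10 (standard error 0.24) was 0.15 without JMJD3 library 1 and -0.41 without JMJD3 library 2. FOSL2 (ENSG00000075426, chromosome 2 of GRCh37 from 28615315 to 28640184), which encodes FRA2, was at 44.3 and 36.6 CPM in vector cells and 65.1 and 65.0 CPM in JMJD3 cells. The JMJD3 libraries were higher, by a log2 fold change of 0.69 (standard error 0.12).

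Among the JUN proteins, which can pair with each other as well as with FOS proteins, JUN (ENSG00000177606, chromosome 1 of GRCh37 from 59242517 to 59249720) was at 19.3 and 18.6 CPM in vector libraries 1 and 2 and at 31.2 and 31.1 CPM in JMJD3 libraries 1 and 2. The groups lay apart, by a log2 fold change of 0.72 (standard error 0.10). JUNB (ENSG00000171223, chromosome 19 of GRCh37 from 12902300 to 12904129) was at 61.8 and 73.4 CPM in vector cells and 85.7 and 84.6 CPM in JMJD3 cells. Its log2 fold change was 0.33 (standard error 0.11) with all libraries and 0.17 without vector library 1, which was the lowest. Exons of HOOK2 on the other strand cover 14.2% of the exon bases of JUNB, and the labelled kit does not mark strand, so reads of these 2 genes may have been exchanged. HOOK2 was at 9.20 and 8.83 CPM in vector cells and 11.4 and 11.2 CPM in JMJD3 cells, while its deposited FPKM was 554 in vector library 2 against 8.04 to 9.24 in the other libraries. JUND (ENSG00000130522, chromosome 19 of GRCh37 from 18390504 to 18392432), the JUN gene with the steadiest expression in resting cells, was at 49.0 and 57.8 CPM in vector cells and 40.8 and 37.6 CPM in JMJD3 cells. It ran opposite to JUN and JUNB, with a log2 fold change of -0.45 (standard error 0.12). ATF3 (ENSG00000162772, chromosome 1 of GRCh37 from 212738676 to 212794119), a stress-induced partner of JUN proteins, was at 5.64 and 6.29 CPM in vector cells and 4.78 and 4.89 CPM in JMJD3 cells. Both JMJD3 libraries were lower, by a log2 fold change of -0.30 (standard error 0.14).

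**Figure D2:**
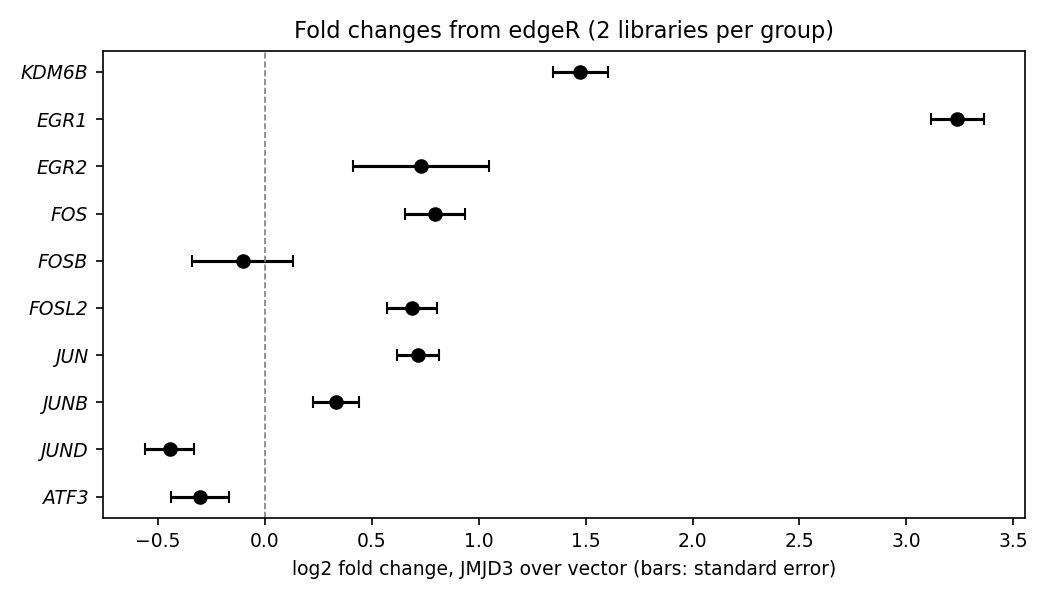
Log2 fold change, JMJD3 over vector, of KDM6B and the 9 tested members from edgeR, with bars of 1 standard error. EGR1 lies at 3.24, JUN, FOSL2, FOS and EGR2 between 0.69 and 0.80, and JUND at -0.45.

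Levels of different genes were compared per length. JUND (45.7 ± 4.45 FPKM, SD, n = 2) and JUNB (43.8 ± 6.14 FPKM, SD, n = 2) led the members in vector cells and did not differ beyond their spread. In JMJD3 cells JUNB (54.1 ± 0.321 FPKM, SD, n = 2) stood above JUND (34.5 ± 5.29 FPKM, SD, n = 2). EGR1, FOSL2, JUN and FOS followed in JMJD3 cells at means of 10.7, 10.6, 9.40 and 8.20 FPKM, of which EGR1 and FOSL2 did not differ beyond their spread. The order below them was ATF3 (3.45 FPKM), FOSB (0.789 FPKM), EGR2 (0.296 FPKM) and EGR3 (0.087 FPKM). In vector cells EGR1, at 1.15 FPKM, was instead below ATF3 and above FOSB (0.884 ± 0.155 FPKM, SD, n = 2). Its vector libraries, at 1.21 and 1.09 FPKM, did not overlap with those of FOSB, at 0.774 and 0.994 FPKM.

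Sums and shares of the AP-1 genes were taken per length. JUN, JUNB and JUND summed to 87.8 and 102.8 FPKM in vector libraries 1 and 2 and to 102.0 and 94.0 FPKM in JMJD3 libraries 1 and 2, with overlapping groups. On the CPM scale these sums were 130.1 and 149.9 in vector cells and 157.7 and 153.3 in JMJD3 cells, which did not overlap, and the log2 ratio of means was 0.15 in place of 0.04. Per length, JUND made up 48.4% and 47.5% of that sum in vector cells and 37.5% and 32.7% in JMJD3 cells. JUNB made up 45.0% and 46.9%, then 53.3% and 57.3%. JUN thus went from 6.64% and 5.64% to 9.22% and 9.99%, so that all 3 shares lay apart between the groups. FOS, FOSB, FOSL1 and FOSL2 summed to 36.9 and 39.9 FPKM in vector cells and 47.9 and 49.5 FPKM in JMJD3 cells. FOSL1, a FOS relative outside the members, held the largest share, at 66.0% and 73.5% in vector cells and 59.6% and 60.0% in JMJD3 cells. On the CPM scale, which is not per length, FOSL2 instead held the largest mean share of this sum, at 48.9% in vector cells and 56.5% in JMJD3 cells.

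Promoter sequences are shown for 5 members as examples of the motifs searched, namely those with a CArG box (EGR1 and EGR2), the full CRE (JUND), and, for the TGACGT core and TGACATCA, FOS and JUN. FOSB and FOSL2 also held the core and ATF3 TGACATCA, and their sequences are not printed. The 12 promoters searched, of 9 members, came from the RefSeq table in GRCh38.p14, a build other than that of the gene positions above. No promoter of EGR3 was among those searched. Each sequence is the 250 bases before a start, 5′ to 3′, with CArG boxes (the site of serum response factor), TGACGT cores and TGACATCA in capitals. They lie at chr5:138465229-138465478 (plus strand), chr10:62816367-62816616 (minus strand), chr14:75278578-75278827 (plus strand), chr1:58784048-58784297 (minus strand) and chr19:18281623-18281872 (minus strand).
EGR1: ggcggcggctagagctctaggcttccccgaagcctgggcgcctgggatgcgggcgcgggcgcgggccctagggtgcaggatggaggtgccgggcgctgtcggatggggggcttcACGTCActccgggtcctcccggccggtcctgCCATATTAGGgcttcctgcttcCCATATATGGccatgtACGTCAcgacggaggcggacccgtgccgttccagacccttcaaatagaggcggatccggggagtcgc
EGR2: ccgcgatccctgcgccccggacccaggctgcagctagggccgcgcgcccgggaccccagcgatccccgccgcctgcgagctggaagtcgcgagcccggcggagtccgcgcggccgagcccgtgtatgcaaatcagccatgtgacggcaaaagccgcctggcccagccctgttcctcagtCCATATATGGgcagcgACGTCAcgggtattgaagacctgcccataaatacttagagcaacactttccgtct
FOS: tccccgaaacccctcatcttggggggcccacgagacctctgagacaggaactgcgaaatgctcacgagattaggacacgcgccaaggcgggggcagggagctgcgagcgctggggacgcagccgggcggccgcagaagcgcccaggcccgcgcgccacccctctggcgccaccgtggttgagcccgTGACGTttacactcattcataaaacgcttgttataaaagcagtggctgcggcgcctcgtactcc
JUN: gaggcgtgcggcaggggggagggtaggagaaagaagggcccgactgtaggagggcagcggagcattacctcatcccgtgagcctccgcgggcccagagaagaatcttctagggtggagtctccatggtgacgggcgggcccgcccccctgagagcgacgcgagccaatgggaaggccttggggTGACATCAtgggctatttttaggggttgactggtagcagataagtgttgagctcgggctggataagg
JUND: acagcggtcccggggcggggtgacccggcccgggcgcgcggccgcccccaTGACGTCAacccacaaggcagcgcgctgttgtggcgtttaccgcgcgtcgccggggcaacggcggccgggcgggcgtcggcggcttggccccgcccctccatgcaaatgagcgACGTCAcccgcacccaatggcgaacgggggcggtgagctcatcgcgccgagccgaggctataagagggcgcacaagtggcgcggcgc

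EGR1 held 2 CArG boxes, from -105 to -96 and from -83 to -74 relative to the start, and 2 TGACGT cores. The EGR2 promoter shown, 1 of 3 in the table, held 1 CArG box from -71 to -62 and 1 core from -55 to -50. On both strands a CArG box was found in 1.29% of the 35116 promoters of 300 bases (250 before to 50 after the start). Bases further upstream were not searched, so that a member without a match here, FOS among them, may hold a site there. The core TGACGT was found in promoters of 6 members, EGR1, EGR2, FOS, FOSB, FOSL2 and JUND, and in 7.98% of all promoters. The full CRE, TGACGTCA, which contains the core, was found in JUND alone among the members, from -200 to -193, and in 1.85% of all promoters. JUN, from -67 to -60, and ATF3, from -123 to -116, held TGACATCA, found in 2.61% of all promoters. The core and TGACATCA were added to the search after the members' promoters had been read. The AP-1 site TGAGTCA was found on the reverse strand of FOSL2, 5 to 11 bases after the start, and in 4.95% of all promoters. The EGR site GCGTGGGCG (0.795% of all promoters) and the C/EBP site TTGCGCAA (0.151%) were found in 0 of the 12 promoters. Members with higher and with lower transcript levels both held the core, and so it was for TGACATCA. The CArG box, the full CRE and the AP-1 site were each found in members of a single direction, which are too few to read anything from. A match is a description, not a bound site.

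Genes with profiles most like those of EGR1 and JUNB were taken by Euclidean distance between mean-centred log2 CPM over the 4 libraries. For EGR1 they were LCN10 (distance 0.275), CTSW (0.299) and ENO2 (0.312). CTSW, for example, was at 4.05 and 4.48 CPM in vector cells and 36.3 and 33.1 CPM in JMJD3 cells. For JUNB they were FANCE, C15orf52 and GAS2L1, at distances of 0.017 to 0.018. With 4 libraries many genes share such a profile.

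The other genes of these pathways were taken from 7 lists of 113 genes in all, of which 103 were tested. By edgeR 26 of them rose and 15 fell at an adjusted p under 0.05, that is 25.2% and 14.6%, beside 21.6% and 19.1% of all tested genes. Their median log2 fold change was 0.03, beside 0.04 over all tested genes. The counts of each list below are to be read beside the same 21.6% and 19.1% of all tested genes. The count that rose was 16 without JMJD3 library 1, and the count that fell was 23 without vector library 1, 7 without JMJD3 library 1 and 6 without JMJD3 library 2.

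Of 38 other immediate early genes 30 were tested. Of these 6 rose and 5 fell, that is 20% and 16.7%, beside 21.6% and 19.1% of all tested genes. Their median log2 fold change was -0.03. KLF6, a zinc finger factor, rose by a log2 fold change of 1.05 (standard error 0.15, edgeR adjusted p = 0.00334). TRIB1, a pseudokinase that promotes C/EBPα degradation, rose by 0.76 (edgeR adjusted p = 0.00588), and NR4A1, an orphan nuclear receptor, by 0.56 (0.0192). DUSP2, a nuclear MAP kinase phosphatase, fell by 1.20 on the log2 scale (edgeR adjusted p = 0.00146), from 52.1 and 60.3 CPM to 25.7 and 23.4 CPM. CXCL2, a neutrophil chemokine, fell by 1.19 (edgeR adjusted p = 0.0243), and TNFAIP3, an NF-κB feedback inhibitor, by 1.00 (0.00285). RGS2 and RGS1, regulators of G protein signaling named after their values were seen, fell by 0.86 (edgeR adjusted p = 0.00396) and by 0.97 (0.0165). The call of NR4A1 was lost without JMJD3 library 1 or 2, with limma on log2(FPKM + 0.1) and with no filter. That of CXCL2 was lost without vector library 2 or either JMJD3 library, with the DESeq2 Wald test and with no filter. With limma on log2(FPKM + 1), which understates changes of low genes, CXCL2 was at -0.55 and RGS1 at -0.58. The call of RGS1 was lost without JMJD3 library 1 and with the DESeq2 Wald test, and that of TNFAIP3 with limma on log2(FPKM + 0.1). In this list 3 genes rose without JMJD3 library 1, and 3 without JMJD3 library 2, and 3 fell without JMJD3 library 1. The count that rose was also 3 with limma on log2(FPKM + 0.1) and with no filter.

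Upstream of these genes, 2 of 18 tested kinases and factors rose and 1 fell, with a median log2 fold change of 0.07. ELK3, an ETS partner of serum response factor, rose by a log2 fold change of 1.20 (standard error 0.13, edgeR adjusted p = 0.00201), from 15.7 and 12.6 CPM to 31.2 and 33.9 CPM. RPS6KA5, which encodes the kinase MSK1, rose by 0.56 (edgeR adjusted p = 0.0201), a call lost without JMJD3 library 2, with limma on FPKM and with no filter. SRF, the serum response factor gene, fell by 0.27 on the log2 scale (edgeR adjusted p = 0.0421), a call lost in 7 of 14 alternatives, the omission of either JMJD3 library among them. The count that rose was 6 without vector library 1, 4 without vector library 2 and 1 without JMJD3 library 2. The count that fell was 4 without vector library 1, 2 without vector library 2 and 0 without either JMJD3 library. With limma on either FPKM scale, and with no filter, 1 rose and 0 fell. The count that fell was also 0 with upper quartile scaling and the replicate block, and 2 with the DESeq2 Wald test. With the replicate block with crossed numbers, 6 rose and 3 fell.

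Feedback genes of the ERK pathway, which ERK signaling itself induces, were read as a list of 8, all tested. By edgeR 4 rose, where 21.6% of all tested genes did, with a median log2 fold change of 0.31. The count that fell was 0, also at an unadjusted p under 0.05 and with DESeq2 or limma, and 2 without vector library 2. DUSP6, an ERK phosphatase, was at 63.4 and 58.1 CPM in vector cells and 106.7 and 108.0 CPM in JMJD3 cells. Its log2 fold change was 0.82 (standard error 0.09, edgeR adjusted p = 0.00183). SPRY4 rose by 0.72 (edgeR adjusted p = 0.00526), DUSP4 by 0.71 (0.00564; 0.41 with limma on log2(FPKM + 1)) and SPRY1 by 0.47 (0.0192), the last named after its value was seen and not called without JMJD3 library 1 or 2, with limma on log2(FPKM + 0.1) or with no filter.

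Other bZIP factors, the partners and relatives of AP-1, had 3 of 15 genes higher and 6 lower, with a median log2 fold change of -0.05. CREB1, which binds the CRE, rose by a log2 fold change of 0.80 (standard error 0.15, edgeR adjusted p = 0.00879), ATF2 by 0.73 (0.0154) and ATF7 by 0.40 (0.046). The call of ATF2 was lost with limma on FPKM and with no filter. ATF7 was below 0 on FPKM, at -0.52 with limma on log2(FPKM + 1), and its call was kept in 5 of 14 alternatives. It was lost without vector library 2 or either JMJD3 library, with no filter, with the replicate block, and with the size factors or the Wald test of DESeq2, and the value was 0.26 without JMJD3 library 2. CREB1 was at 1.22 with limma on log2(FPKM + 1) and at 1.31 on log2(FPKM + 0.1). ATF5 fell by 1.74 on the log2 scale (standard error 0.11, edgeR adjusted p = 0.000562), from 57.5 and 66.4 CPM to 18.9 and 18.3 CPM. BATF fell by 0.52 (edgeR adjusted p = 0.0256), not so without JMJD3 library 1 or 2, with limma on log2(FPKM + 0.1) or with no filter. ATF4, a factor of the integrated stress response, fell by 0.43 (edgeR adjusted p = 0.0102), not so without JMJD3 library 2 or with limma on log2(FPKM + 0.1). The count that rose was 5 without JMJD3 library 2, and the count that fell was 2 without JMJD3 library 1 and 1 without JMJD3 library 2. With limma 1 rose on either FPKM scale and 1 fell on log2(FPKM + 0.1), and with no filter 1 rose. With the replicate block with crossed numbers, 6 rose. Of the 3 tested EGR relatives and cofactors WT1 rose, by a log2 fold change of 0.30 (edgeR adjusted p = 0.0485), a call lost in 7 of 14 alternatives, the omission of either JMJD3 library among them. The value was 0.19 without vector library 2, 0.46 with limma on log2(FPKM + 1) and 0.47 on log2(FPKM + 0.1). In this list 0 fell, also at an unadjusted p under 0.05 and with DESeq2 or limma. With the replicate block with crossed numbers, 2 rose. The count that rose was 2 without vector library 2 and 0 without either JMJD3 library.

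Of 20 genes known from textbooks as targets of AP-1 or EGR factors, 8 rose and 3 fell, with a median log2 fold change of 0.07. ITGAX, which encodes CD11c, was at 8.55 and 8.36 CPM in vector cells and 27.3 and 28.2 CPM in JMJD3 cells. It rose by a log2 fold change of 1.71 (standard error 0.10, edgeR adjusted p = 0.000432). CXCL8, the interleukin 8 gene, rose by 1.08 (edgeR adjusted p = 0.00234) and CD44, the hyaluronan receptor gene, by 0.68 (0.00199). F3, the tissue factor gene, fell by 0.60 on the log2 scale (edgeR adjusted p = 0.00513), and TGFB1 by 0.34 (0.0343), the latter lost in 7 of 14 alternatives, the omission of either JMJD3 library among them, and at -0.22 without vector library 2. FLT1, a VEGF receptor gene named after its value was seen, fell by 1.83 (edgeR adjusted p = 0.018), from 20 and 20 reads to 8 and 5, not so without JMJD3 library 2, with the DESeq2 Wald test, with limma on log2(FPKM + 1), where it was at -0.20, or with no filter, and at -1.01 with limma on log2(FPKM + 0.1). The calls of CD44 and F3 were lost with limma on log2(FPKM + 0.1). The count that rose was 4 without JMJD3 library 1, and the count that fell was 1 without JMJD3 library 2. With limma 5 rose and 1 fell on log2(FPKM + 1), and 2 rose and 1 fell on log2(FPKM + 0.1), and with no filter 1 fell. Of the 9 tested heat shock and stress genes 2 rose and 0 fell, also at an unadjusted p under 0.05 and with DESeq2 or limma, with 2 lower without vector library 1. With the replicate block with crossed numbers, 1 of them fell. DDIT3, which encodes CHOP, rose by a log2 fold change of 0.88 (standard error 0.12, edgeR adjusted p = 0.00272), and HSPH1 by 0.51 (0.0111), the latter not with limma on log2(FPKM + 0.1) or with no filter, so that 1 gene rose in each.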

How the data were processed

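RNA-seq values of 4 NB4 libraries were used, 2 per group. For each library the table the authors deposited gives 2 columns, estimated counts and FPKM. The deposited counts were read as reads multiplied by 1 factor per library, which is inferred from the values. In each library the commonest nonzero value (1.14 and 1.05 in vector libraries 1 and 2, 0.993 and 0.829 in JMJD3 libraries 1 and 2) was taken as the value of 1 read, and within 0.01 of a read 93.2 to 93.6% of nonzero values of up to 500 reads were whole multiples of it, and 86.5 to 90.9% of all nonzero values. The tolerance and the limit of 500 were set after the values were seen. The other values were fractional, and how the factor was made is not given in the sources used here. The sources differ on how the counts were made: the methods name STAR, hg19 and HTSeq-count, the submitters' processing notes list CASAVA 1.8, TopHat2 2.0.4, RSEM, edgeR and GRCh38, and the series text names BWA, TopHat and Cufflinks. The table's group mean FPKM, log2 fold change, p-value, FDR and call columns are the authors' own comparison and were not used.

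Deposited counts were rounded without undoing this factor, filtered with filterByExpr (15246 of 60662 genes kept), given TMM library sizes and compared in R 4.3.3 by edgeR 4.0.16 (quasi-likelihood functions glmQLFit, then glmQLFTest) over the 4 libraries without covariates, with Benjamini-Hochberg adjustment over all genes kept. The standard error was the size of the log2 fold change divided by the square root of F. The common dispersion was 0.00895. Gene positions came from GENCODE 44 on GRCh37 by identifier (93.9% matched), and promoters from RefSeq. The fit was tested on simulated counts.

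The members and lists were chosen with earlier results of these data known. Named genes were all members, KDM6B, in each pathway list up to 3 genes in each direction with the largest change among those called, with a mean FPKM of at least 1 in a group and no overlap, in each marker list the most abundant gene and those called, and, after their values were seen, the other called genes of a list with at most 5 in a direction. For EGR1 and JUNB the 3 nearest profiles were named, with 0.5 added to CPM. Alternatives were DESeq2 1.42.0 size factors and Wald test, upper quartile scaling, limma 3.58.1 on log2(FPKM + 1) or with 0.1 as pseudocount, no filter, at least 10 deposited counts in every library, a replicate block, and each library left out, and, chosen after seeing the data, a replicate block with crossed numbers and the same test on the reads with the library factor undone. CPM replaced FPKM for the AP-1 shares, and the 250 bases before the start the full promoter window. Protein identity between members had been planned and was not analysed here.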

Additional observations from a re-analysis of the deposited data

How the results depend on the processing

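KDM6B kept its direction and call under all 14 alternatives, between 1.19 and 1.58. Counts of calls moved with limma on FPKM, with no filter and with libraries left out. Counts of some lists also moved with DESeq2, upper quartile scaling and either replicate block. The cause of these moves was not tested. With limma on log2(FPKM + 1), limma on log2(FPKM + 0.1) and no filter on low counts, 0 members were called lower in each. Of all genes these settings called 1950, 1573 and 1893 higher and 1919, 1165 and 1776 lower. Of the pathway lists, limma on log2(FPKM + 0.1) called 11 higher and 6 lower, and no filter 15 higher and 9 lower. With 1 library left out, a fit that keeps 1 residual degree of freedom and assumes that the lone library varies like the other group, 0 to 2 members were called lower, 16 to 32 list genes higher and 6 to 23 lower, and 1920 to 4343 genes higher and 1133 to 4183 lower over all genes. FOSB, between -0.41 and 0.15 with 1 library left out, turned to 0.15 without JMJD3 replicate 1, and ATF7 to -0.52 and -0.57 with limma on log2(FPKM + 1) and log2(FPKM + 0.1). Over all named genes and alternatives with an adjusted p, 638 values kept their direction and side of the threshold, 98 lost the call, 1 gained it and 3 turned. With CPM in place of FPKM, which leaves out gene length, the log2 ratio of the summed FOS genes was 0.48 in place of 0.34. Shares in vector and JMJD3 cells were then 13.6% and 20.03% for JUN, 48.3% and 54.8% for JUNB and 38.1% and 25.2% for JUND. Of the FOS genes they were 8.12% and 10.1% for FOS, 40.7% and 31.8% for FOSL1 and 48.9% and 56.5% for FOSL2. In the 250 bases before the start alone, a shorter window, 1.65% of promoters held the CRE, 4.20% the AP-1 site, 1.16% a CArG box, 7.10% the TGACGT core and 2.37% TGACATCA. With the replicate block KDM6B was at 1.47, 4 members were called higher and 1 lower, and 3267 genes were higher and 2415 lower. Deviations of replicate 1 in the groups correlated at -0.25 across tested genes, which are not independent, and no label pairs libraries by number. A replicate block with crossed numbers, chosen after seeing the data, called 4335 genes higher and 3772 lower. With the library factor undone, also chosen after seeing the data, 3303 genes were called higher and 2915 lower, and 6176 of the 6198 calls were kept. With 2 libraries a group, spread is estimated from few values, and EGR2 and EGR3 rest on few reads.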
